A study of Mus musculus with 12 samples.

Results

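The insulin-like growth factor (IGF) axis was followed here through 10 genes: the ligands *Igf1* and *Igf2*, the receptors *Igf1r* and *Igf2r*, and the binding proteins *Igfbp2* to *Igfbp7*. These 10 members were taken from the 35727 genes of the bulk RNAseq count table by their Ensembl identifiers. The genes were selected on their differences between *Sox17*-*Erg* and control samples, so those differences are given below as a description and without a test. All 10 passed the filter on low counts, which kept 15506 genes.

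IGF1 and IGF2 are small secreted growth factors related to insulin. Both act mainly through IGF1R, a receptor tyrosine kinase that recruits IRS adaptors and activates the PI3K-AKT and MAPK pathways. IGF2R carries no kinase and instead takes up IGF2 for degradation in lysosomes, besides sorting lysosomal enzymes that carry mannose 6-phosphate. The IGFBP proteins hold the ligands in the extracellular space and either withhold them from the receptor or deliver them to it. Proteases such as PAPPA release the ligands by cutting individual IGFBPs. In the heart, fibroblasts, macrophages and the epicardium are known sources of IGF ligands, and several IGFBPs are made by vascular and stromal cells.

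The study asked when cardiac fibroblasts gain endothelial identity after retroviral delivery of the transcription factors *Sox17* and *Erg*. Fibroblasts came from pooled hearts of neonatal mice. C57BL/6J is the line the study lists at neonatal age, and the labels name no strain. The cells were selected for THY1 with magnetic beads, and the study added a prior removal of PECAM1-positive cells when it characterized the reprogrammed cells. Its methods give that removal as optional, and the labels do not state it for each library. *Sox17*-*Erg* cells received both factors, whereas the comparison cells are labelled only as control, with PMX (the name of the retroviral backbone) in their library names. Both arms were sampled early (Day 3 and Day 7) and after 4 weeks, with 2 libraries in each of the 6 groups, 12 in all, and the labels give EGM2, an endothelial growth medium, for all groups. This medium is commonly supplied with an IGF1 analogue, which would be the same for both arms. The labels do not say whether the 2 libraries of a group came from separate isolations, and p-values therefore measure the spread between these libraries.

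Libraries held between 19011635 and 41240449 estimated counts. Levels are given as CPM, each count as a share of its TMM-scaled library size, and a level is compared between genes only per kilobase of exons. *Sox17* lay between 432 and 1036 CPM in the *Sox17*-*Erg* libraries, and the control libraries held at most 9 counts. *Erg* lay between 17.1 and 65.2 CPM in *Sox17*-*Erg* libraries. In control, replicate 2 of Day 3 and of Day 7 held 49 and 34 counts of *Erg*, where the other 4 libraries held at most 4. Among 8 endothelial markers, those called higher with *Sox17*-*Erg* numbered 4, 5 and 6 in order of time, and the summed level of all 8 was 308 to 771 CPM against 19.9 to 54.3 CPM in control. Among 8 fibroblast markers, *Dcn*, *Lum*, *Pdgfra* and *Tcf21* were lower at 4 weeks and *Postn* was higher, with *Col1a1*, *Col1a2* and *Thy1* not called. On Day 3 *Tcf21* was lower, and on Day 7 *Dcn*, *Lum* and *Pdgfra* were lower and *Postn* higher. The sum of all 8 was 29769 and 35777 CPM in control and 25129 and 39098 CPM in *Sox17*-*Erg* on Day 3, 19679 and 24273 against 29669 and 30783 CPM on Day 7, and 14011 and 12479 against 10090 and 10974 CPM after 4 weeks. Of 8 smooth muscle and pericyte markers, 1, 5 and 4 were called higher in order of time (at 4 weeks *Cnn1*, *Cspg4*, *Myh11* and *Rgs5*), and *Des* was lower at Day 7 and 4 weeks. Their sum was 1195 to 4083 CPM in control and 2495 to 5024 CPM in *Sox17*-*Erg*. Of 6 cardiomyocyte markers, *Tnnt2* was lower at Day 3, *Myh6* at Day 7, and *Actc1*, *Myh6* and *Nppa* at 4 weeks. The sum of all 6 was 639 to 1521 CPM in control and 332 to 686 CPM in *Sox17*-*Erg*. The 5 epicardial markers summed to 254 to 1364 CPM in control and 115 to 309 CPM in *Sox17*-*Erg*, and all 5 were lower at 4 weeks. *Upk3b* was also lower at Day 3, and *Krt19*, *Upk3b* and *Wt1* were lower at Day 7. The 6 macrophage markers, none of them called between the arms, summed to 379 and 261 CPM in control and 248 and 287 CPM in *Sox17*-*Erg* on Day 3. On Day 7 the sums did not overlap, with 767 and 1186 CPM in control and 232 and 403 CPM in *Sox17*-*Erg*, and after 4 weeks they were 44.3 and 373 CPM in control and 58.1 and 280 CPM in *Sox17*-*Erg*. Of 6 cell cycle markers, *Bub1*, *Mki67* and *Top2a* were called higher with *Sox17*-*Erg* at 4 weeks, and none was called at Day 3 or Day 7. In bulk samples, a change in the number of cells of a type and a change in RNA per cell cannot be told apart. The part of these marker differences in the results below was not tested.

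The promoters of 4 members are shown because the results turn on these genes: *Sox17*-*Erg* samples of Day 3 had more *Igf1* and *Igfbp3* than control samples and less *Igfbp4* and *Igfbp6*. At Day 3 the difference of *Igfbp4* was not called, nor was the larger one of *Igfbp2*. ERG is an ETS factor and SOX17 an SRY-box factor, and the capitals mark each match, on either strand, to the motifs searched. GGAAG holds the core that ETS factors bind. ACAAT is a SOX core. TATAAA is a TATA box. The sequences are those of RefSeq in the GRCm38.p6 build, and they run from 250 bases before to 50 bases after the start annotated in RefSeq.
*Igf1*, chr10:87860861-87861160, plus strand: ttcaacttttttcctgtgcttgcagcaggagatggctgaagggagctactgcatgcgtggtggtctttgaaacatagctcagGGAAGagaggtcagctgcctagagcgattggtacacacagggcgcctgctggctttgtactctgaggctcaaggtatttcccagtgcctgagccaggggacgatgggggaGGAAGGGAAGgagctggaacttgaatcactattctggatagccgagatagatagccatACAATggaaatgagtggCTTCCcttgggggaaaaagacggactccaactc
*Igfbp3*, chr11:7213874-7214173, minus strand: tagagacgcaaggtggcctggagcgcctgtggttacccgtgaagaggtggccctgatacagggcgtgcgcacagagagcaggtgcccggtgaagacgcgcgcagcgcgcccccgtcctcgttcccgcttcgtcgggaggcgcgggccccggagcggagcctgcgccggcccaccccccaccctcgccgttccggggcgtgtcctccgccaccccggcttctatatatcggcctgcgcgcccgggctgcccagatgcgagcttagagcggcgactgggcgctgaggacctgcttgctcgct
*Igfbp4*, chr11:99040994-99041293, plus strand: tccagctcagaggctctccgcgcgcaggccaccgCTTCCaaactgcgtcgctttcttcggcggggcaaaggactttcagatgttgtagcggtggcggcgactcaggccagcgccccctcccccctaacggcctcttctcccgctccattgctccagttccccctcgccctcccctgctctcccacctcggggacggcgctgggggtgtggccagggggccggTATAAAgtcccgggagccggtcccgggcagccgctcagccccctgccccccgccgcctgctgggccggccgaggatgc
*Igfbp6*, chr15:102143936-102144235, plus strand: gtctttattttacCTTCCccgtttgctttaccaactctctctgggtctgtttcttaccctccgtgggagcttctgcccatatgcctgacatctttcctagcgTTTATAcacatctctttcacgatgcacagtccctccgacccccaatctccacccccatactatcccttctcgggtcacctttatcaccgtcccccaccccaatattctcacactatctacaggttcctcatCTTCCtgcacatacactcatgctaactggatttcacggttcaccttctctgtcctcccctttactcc
The *Igf1* window held 4 matches to GGAAG and 1 match to ACAAT. The *Igfbp3* window, at the gene with the largest difference at Day 3, held no match to any of the 3 motifs. *Igfbp4* had 1 match to GGAAG and *Igfbp6* had 2. Each had 1 TATAAA, in *Igfbp4* on the strand shown and in *Igfbp6* on the opposite strand (TTTATA). Of 32851 RefSeq promoters of this length, 71.4% held GGAAG, 31.0% held ACAAT and 13.6% held TATAAA. A match is a string of letters and not a binding site, and its absence says only that these letters are not in this window. *Igf1* has other annotated starts outside the window shown, since the gene as a whole spans chr10:87858265-87937042 in the GENCODE annotation. The *Igfbp6* window ends before the start of that gene in the GENCODE annotation, at chr15:102144362.

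Compared with control, *Sox17*-*Erg* samples held more *Igf1* and less *Igfbp6* throughout the time course. *Igfbp3* was far higher at Day 3 and lower at 4 weeks (the latter not called), whereas *Igfbp4* was lowest relative to control at Day 7. *Igfbp5*, *Igf1r* and *Igf2r* were higher at 4 weeks. At an adjusted p under 0.05 over all genes tested, 2 members were called higher at Day 3 (*Igf1* and *Igfbp3*), where 7.19% of all genes were called higher, and 1 was called lower (*Igfbp6*), where 5.13% of all genes were. At Day 7, 2 members were called higher (*Igf1* and *Igfbp5*) and 3 lower (*Igf2*, *Igfbp4* and *Igfbp6*), beside 9.48% and 7.93% of all genes. At 4 weeks, 4 were called higher (*Igf1*, *Igf1r*, *Igf2r* and *Igfbp5*) and 3 lower (*Igf2*, *Igfbp4* and *Igfbp6*), beside 11.9% and 11.0% of all genes. Because these comparisons chose the members, nothing is read from the counts. The median log2 difference of the 10 members was -0.24, 0.10 and -0.09 in order of time, where that of all genes tested was 0.010, 0.006 and -0.014.

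**Figure D1:**
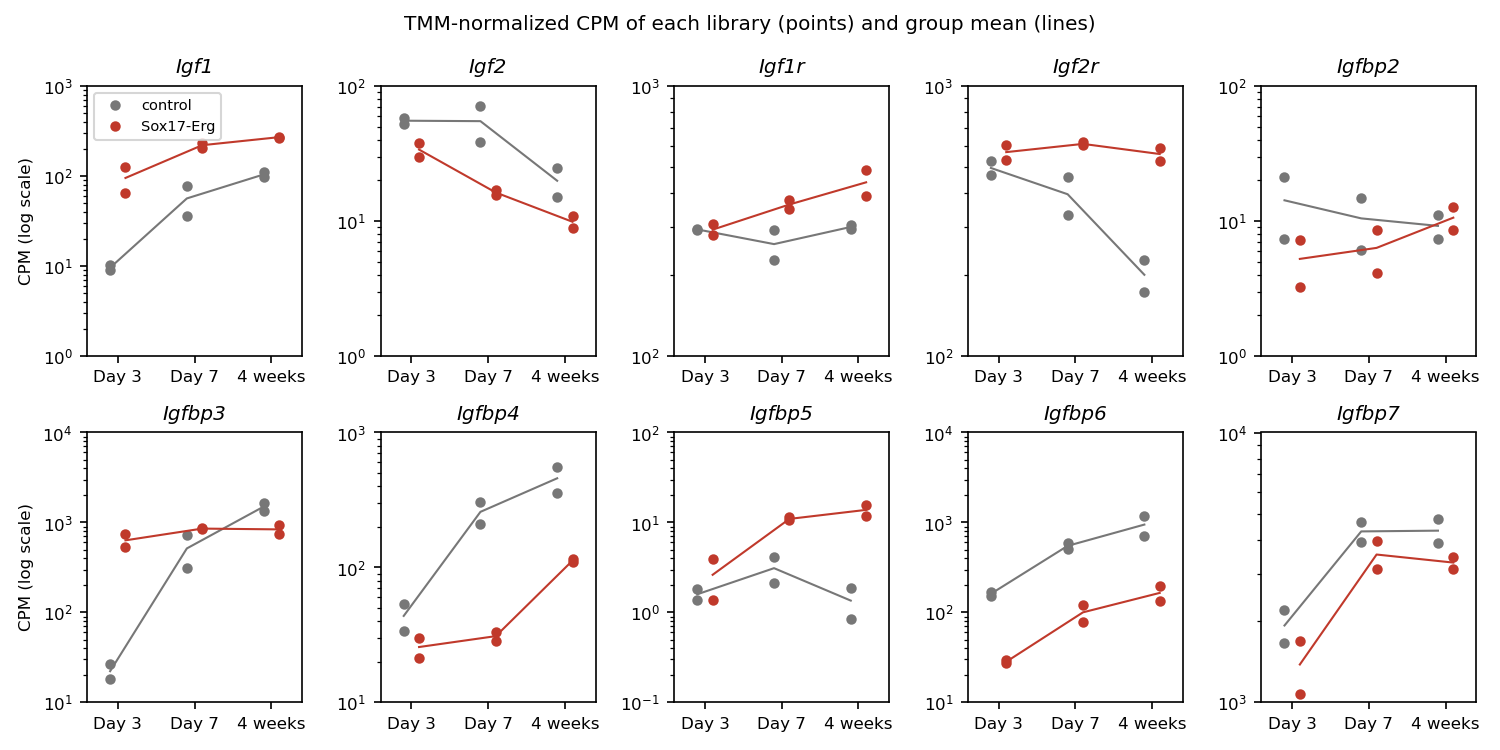
CPM on a log axis (y) at Day 3, Day 7 and 4 weeks (x) for each of the 10 genes. Each point is 1 library, gray for control and red for *Sox17*-*Erg*, and lines join the means of 2 libraries. *Igfbp3* in control climbs from 22.2 to 1499 CPM on average and crosses the *Sox17*-*Erg* line, and *Igfbp6* keeps both lines apart.

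**Figure D2:**
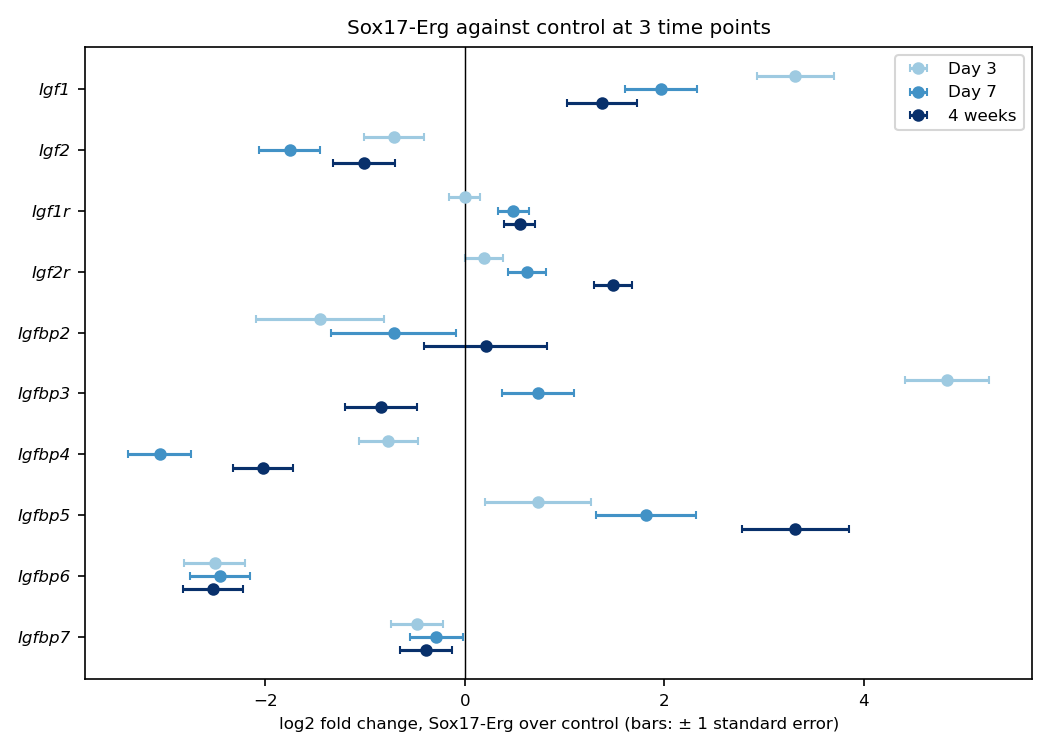
Log2 fold change of *Sox17*-*Erg* over control (x) for each gene (y) at the 3 time points, with bars of 1 standard error from the edgeR model. *Igfbp3* spans from 4.83 at Day 3 to -0.84 at 4 weeks, and the 3 points of *Igfbp6* lie between -2.52 and -2.45.

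Of the ligands, *Igf1* (ENSMUSG00000020053) was measured on Day 3 at 10.2 and 8.97 CPM in control libraries, compared with 125 and 65.4 CPM in *Sox17*-*Erg* libraries. Day 7 gave 36.1 and 76.5 CPM in control and 233 and 206 CPM with *Sox17*-*Erg*. By 4 weeks *Igf1* stood at 110 and 97.3 CPM in control and at 274 and 266 CPM in *Sox17*-*Erg*. Every *Sox17*-*Erg* library was therefore above both control libraries of its own time point, and the order over all groups ran from *Sox17*-*Erg* at 4 weeks to control at Day 3. In that order control at 4 weeks, *Sox17*-*Erg* at Day 3 and control at Day 7 overlapped with their neighbours. The difference was 9.92-fold at Day 3 (log2 3.31 ± 0.39, standard error of the model, n = 2 per group), 3.90-fold at Day 7 (1.97 ± 0.36) and 2.60-fold at 4 weeks (1.38 ± 0.35). At Day 7 the log2 difference was 1.497 without replicate 1 and 2.607 without replicate 2 of the control. At 4 weeks *Igf1* lay at 104 ± 9.37 CPM (SD, n = 2) in control and 270 ± 6.05 CPM in *Sox17*-*Erg*. Macrophages are a known source of IGF1, and the part of the macrophage markers, whose sums are given above, was not tested.

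*Igf2* (ENSMUSG00000048583), the ligand best known from fetal growth, went the other way. Control libraries held 57.9 and 52.7 CPM at Day 3, 71.0 and 38.8 CPM at Day 7 and 24.7 and 15.1 CPM at 4 weeks. *Sox17*-*Erg* libraries held 29.6 and 38.0 CPM, then 15.4 and 17.1 CPM, then 10.9 and 8.82 CPM. No *Sox17*-*Erg* library reached a control library of the same time point, and the log2 difference was -0.71 ± 0.30 on Day 3, -1.76 ± 0.31 on Day 7 and -1.01 ± 0.31 at 4 weeks. Without replicate 1 of the control at 4 weeks the last of these was -0.61. Per kilobase of exons the 2 ligands changed places: at Day 3 the control samples held 9.67 ± 0.64 CPM per kb of *Igf2* and 0.97 ± 0.08 of *Igf1*, and at 4 weeks the *Sox17*-*Erg* samples held 1.72 ± 0.26 of *Igf2* and 27.2 ± 0.61 of *Igf1*. *Igf2* shares 62.8% of its exon bases with a read-through gene, *Gm49394*, which was at no more than 0.163 CPM in any library.

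The receptors were more even in level than the ligands. *Igf1r* (ENSMUSG00000005533) lay between 280 and 308 CPM in all 4 libraries of Day 3. At Day 7 it measured 227 and 292 CPM in control and 350 and 378 CPM in *Sox17*-*Erg*, and at 4 weeks 305 and 296 CPM against 490 and 390 CPM. The arms overlapped at Day 3 and not afterwards. The log2 difference was 0.00 ± 0.16 on Day 3, 0.49 ± 0.16 on Day 7 and 0.55 ± 0.16 at 4 weeks, and it was 0.29 at Day 7 without replicate 1 of the control and 0.37 at 4 weeks without replicate 1 of *Sox17*-*Erg*.

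*Igf2r* (ENSMUSG00000023830), the receptor that clears IGF2, measured 467 and 527 CPM in control at Day 3, 333 and 462 CPM at Day 7 and 227 and 173 CPM at 4 weeks. In *Sox17*-*Erg* it measured 534 and 604 CPM, 603 and 618 CPM, and 591 and 529 CPM at the same times. The *Sox17*-*Erg* libraries of Day 7 and of 4 weeks each overlapped with those of Day 3 and not with each other, while each control group lay below the one before it. The log2 difference was 0.20 ± 0.19 on Day 3, 0.62 ± 0.19 on Day 7 and 1.49 ± 0.19 at 4 weeks, a 2.80-fold higher level. On Day 7 it was 0.38 without replicate 1 and 0.87 without replicate 2 of the control. Per kilobase, *Igf2r* was above *Igf1r* in each of the 6 groups, by 53.4 ± 4.61 against 17.5 ± 0.08 CPM per kb in control at Day 3 and by 21.5 ± 4.09 against 17.9 ± 0.36 in control at 4 weeks.

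Among the binding proteins, *Igfbp3* (ENSMUSG00000020427), the main carrier of IGFs in serum, showed the largest difference of the 10 genes at Day 3. It was at 18.1 and 26.4 CPM in the control libraries and at 736 and 530 CPM in the *Sox17*-*Erg* libraries, a 28.5-fold difference (log2 4.83 ± 0.42). At Day 7 the control libraries held 311 and 719 CPM and the *Sox17*-*Erg* libraries 852 and 858 CPM. At 4 weeks the order was turned, with 1641 and 1357 CPM in control and 746 and 929 CPM in *Sox17*-*Erg*. The arms did not overlap at any of the 3 time points, and the log2 difference was 0.73 ± 0.36 at Day 7 and -0.84 ± 0.36 at 4 weeks. The control libraries of Day 7 lay far apart, and the difference at that time was 0.23 without replicate 1 and 1.46 without replicate 2 of the control. These 2 libraries also stood apart in markers: replicates 1 and 2 had endothelial sums of 20.1 and 50.6 CPM, macrophage sums of 767 and 1186 CPM and cell cycle sums of 404 and 126 CPM. *Igf1* was likewise higher in replicate 2, and the part of these differences was not tested.

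*Igfbp4* (ENSMUSG00000017493) encodes the binding protein that PAPPA cuts, and *Igfbp6* (ENSMUSG00000023046) one that prefers IGF2 over IGF1. *Igfbp4* was at 53.6 and 33.9 CPM in control and 30.0 and 21.5 CPM in *Sox17*-*Erg* at Day 3. At Day 7 it was at 209 and 307 CPM against 28.7 and 33.3 CPM, and at 4 weeks at 557 and 359 CPM against 115 and 110 CPM. All *Sox17*-*Erg* libraries lay below the control libraries of the same time. The log2 difference of *Igfbp4* was -0.77 ± 0.30, -3.06 ± 0.31 and -2.03 ± 0.30 at Day 3, Day 7 and 4 weeks. It was -0.40 at Day 3 without replicate 1 of the control.

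*Igfbp6* was measured at 169 and 154 CPM in control and at 29.4 and 27.3 CPM in *Sox17*-*Erg* at Day 3. At Day 7 it gave 588 and 511 CPM against 78.7 and 122 CPM, and at 4 weeks 1188 and 707 CPM against 196 and 134 CPM. Both arms climbed over time and stayed apart, with *Sox17*-*Erg* lower by 5.69-fold, 5.48-fold and 5.75-fold (log2 -2.51, -2.45 and -2.52, each ± 0.30). The log2 difference was -2.85 at Day 7 without replicate 2 of *Sox17*-*Erg* and -2.10 at 4 weeks without replicate 1 of the control. The mean level in *Sox17*-*Erg* at 4 weeks, 165 ± 44.0 CPM, overlapped with control at Day 3, 161 ± 10.7 CPM. The part of the fibroblast and epicardial markers, given above, was not tested.

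*Igfbp5* (ENSMUSG00000026185), whose product binds to matrix and is also cut by PAPPA, was measured at low levels. In control it ran from 0.854 to 4.10 CPM over all 6 libraries. *Sox17*-*Erg* libraries held 1.37 and 3.88 CPM at Day 3, 10.5 and 11.4 CPM at Day 7 and 11.8 and 15.8 CPM at 4 weeks. The arms overlapped at Day 3 and were apart at Day 7 and 4 weeks, with log2 differences of 0.73 ± 0.53, 1.82 ± 0.50 and 3.31 ± 0.53. At Day 3 the difference was -0.22 without replicate 2 of *Sox17*-*Erg*, and at 4 weeks it was 4.01 without replicate 1 of the control. *Igfbp2* (ENSMUSG00000039323) is its neighbour in the genome: *Igfbp2* lies at chr1:72824503-72852474 on the plus strand and *Igfbp5* at chr1:72857932-72874884 on the minus strand.

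*Igfbp2* encodes a binding protein that is high in fetal tissue. It measured 21.1 and 7.31 CPM in control and 7.24 and 3.23 CPM in *Sox17*-*Erg* at Day 3, 14.8 and 6.11 CPM against 8.55 and 4.09 CPM at Day 7, and 7.37 and 11.0 CPM against 8.57 and 12.6 CPM at 4 weeks. In all 4 groups of Day 3 and Day 7 replicate 1 was higher, and at 4 weeks replicate 2 was higher in both arms. The summed epicardial markers were 680 and 254 CPM in control and 189 and 115 CPM in *Sox17*-*Erg* at Day 3 and 1364 and 868 CPM in control at 4 weeks, and their part in the values of *Igfbp2* was not tested. The log2 differences of *Igfbp2* were -1.45 ± 0.64, -0.71 ± 0.62 and 0.21 ± 0.62, and without replicate 1 of the control that of Day 3 was -0.49 and that of Day 7 was 0.03.

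*Igfbp7* (ENSMUSG00000036256), a relative with low affinity for IGFs that is deposited around blood vessels, was the most abundant member in every library. It measured 1661 and 2194 CPM in control and 1070 and 1694 CPM in *Sox17*-*Erg* at Day 3, 3946 and 4656 CPM against 3112 and 3950 CPM at Day 7, and 4762 and 3895 CPM against 3130 and 3463 CPM at 4 weeks. The arms overlapped at Day 3 and by a few CPM at Day 7. The log2 differences were -0.48, -0.28 and -0.39, each ± 0.26, and that of Day 3 was -0.23 without replicate 1 and -0.85 without replicate 2 of *Sox17*-*Erg*. For *Igfbp7*, 7.03% of exon bases lie opposite *Polr2b*, which was at 39.8 to 55.5 CPM.

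Per kilobase of exons, *Igfbp2* to *Igfbp7* together came to 1764 ± 295 CPM per kb in control and 1380 ± 315 in *Sox17*-*Erg* at Day 3, to 4281 ± 471 and 3296 ± 518 at Day 7, and to 5020 ± 907 and 3176 ± 197 at 4 weeks. The libraries of the arms overlapped at Day 3 and not at Day 7 or 4 weeks. *Igfbp7* made up most of this sum, from 71.6% ± 2.84 in control at 4 weeks to 90.2% ± 2.56 in control at Day 3. What stood beside *Igfbp7* differed between the arms. In control, *Igfbp6* held the largest remaining share at each time, with 8.38% ± 1.95, 11.7% ± 2.44 and 16.7% ± 3.07 in order of time. In *Sox17*-*Erg* it was *Igfbp3*, with 15.5% ± 6.89, 8.39% ± 1.28 and 8.40% ± 0.78, while *Igfbp6* held 1.91% ± 0.53, 2.70% ± 0.41 and 4.72% ± 1.54. *Igfbp3* held 0.40% ± 0.04 of the sum in control at Day 3 and 9.58% ± 0.46 at 4 weeks. *Igfbp4* reached 2.04% ± 0.26 in control at 4 weeks, and *Igfbp5* stayed below 0.08% in every library. Shares are of RNA and not of protein, and the IGFBPs differ in their affinity for the ligands.

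**Figure D3:**
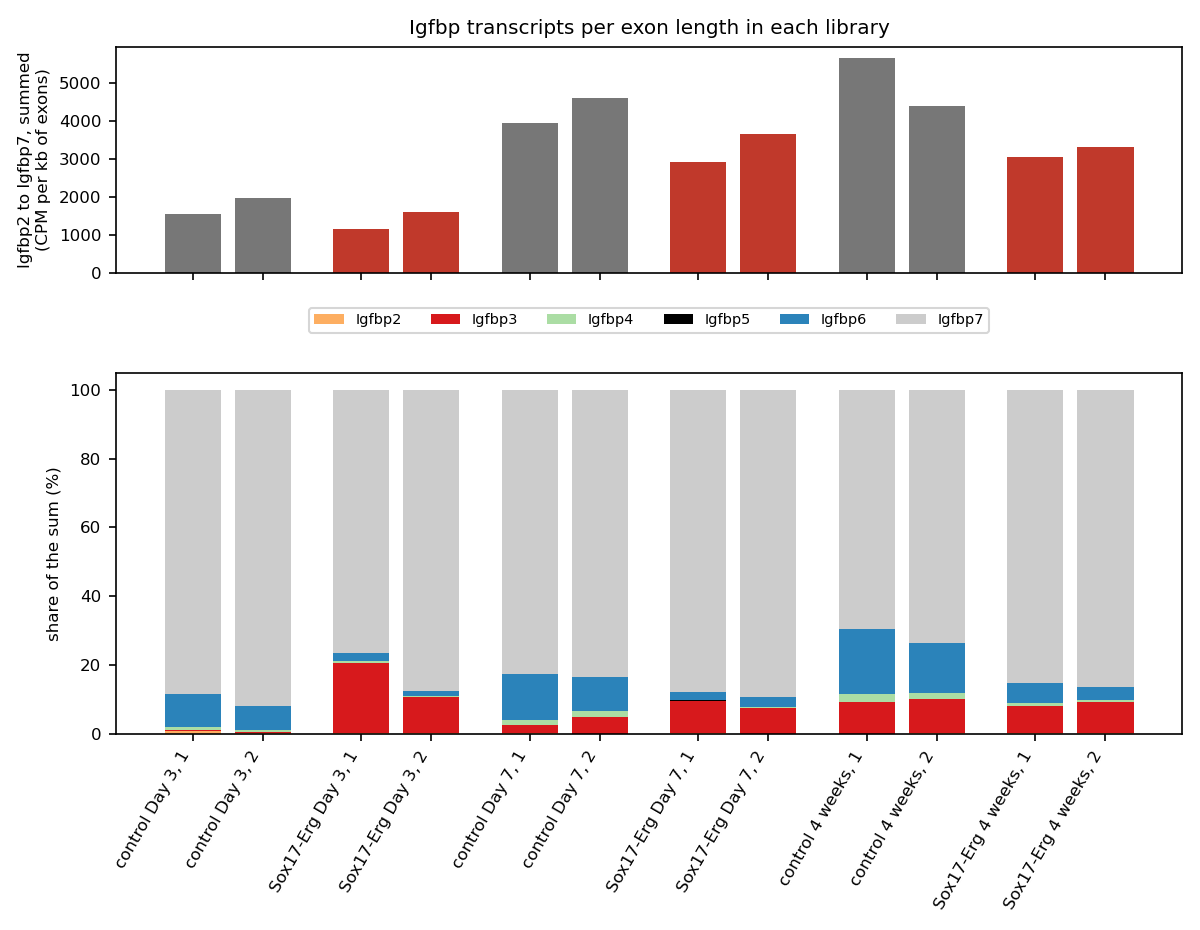
Upper panel, the sum of *Igfbp2* to *Igfbp7* in CPM per kilobase of exons in each of the 12 libraries, gray for control and red for *Sox17*-*Erg*. Lower panel, the share of each gene in that sum in percent. *Igfbp7* (light gray) fills 69.6% to 92.0% of each bar, and the blue share of *Igfbp6* is larger in every control bar than in any *Sox17*-*Erg* bar.

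The change from Day 3 to 4 weeks within each arm is another comparison of the same libraries and was tested with edgeR's quasi-likelihood test, with Benjamini-Hochberg adjustment over all 15506 genes. It is not independent of the choice of members, since the libraries are shared with the comparisons that chose them. In control, 5 members rose (*Igf1*, *Igfbp3*, *Igfbp4*, *Igfbp6* and *Igfbp7*), where 13.9% of all genes did, and 2 fell (*Igf2* and *Igf2r*), where 12.6% did. In *Sox17*-*Erg*, 6 rose (*Igf1*, *Igf1r*, *Igfbp4*, *Igfbp5*, *Igfbp6* and *Igfbp7*), where 15.1% of all genes did, and 1 fell (*Igf2*), where 15.6% did. The median log2 change of the members was 0.60 in control and 1.14 in *Sox17*-*Erg*, where that of all genes was -0.009 and -0.005.

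*Igfbp3* rose most in control, by 6.08 ± 0.45 on the log2 scale or 67.5-fold (edgeR adjusted p = 0.00013), and changed by 0.40 ± 0.36 in *Sox17*-*Erg* (adjusted p = 0.43). *Igf1* rose by 3.44 ± 0.39 in control (adjusted p = 0.00072) and by 1.51 ± 0.35 in *Sox17*-*Erg* (adjusted p = 0.013). *Igfbp4* rose by 3.39 ± 0.32 in control (adjusted p = 0.00037) and by 2.13 ± 0.30 in *Sox17*-*Erg* (adjusted p = 0.0018). *Igfbp6* rose by nearly the same amount in both arms, 2.56 ± 0.30 in control and 2.54 ± 0.30 in *Sox17*-*Erg* (adjusted p = 0.00082 and 0.00087 in edgeR). *Igfbp7* rose by 1.17 ± 0.27 and 1.25 ± 0.27 (adjusted p = 0.013 and 0.0086 in edgeR). *Igf2* fell by 1.47 on the log2 scale in control and by 1.78 in *Sox17*-*Erg* (adjusted p = 0.0086 and 0.004 in edgeR).

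The receptors and *Igfbp5* passed the test in 1 arm each. *Igf2r* fell by 1.31 on the log2 scale in control (edgeR adjusted p = 0.002) and had -0.02 ± 0.19 in *Sox17*-*Erg* (adjusted p = 0.94). *Igf1r* had 0.03 ± 0.16 in control (edgeR adjusted p = 0.91) and rose by 0.58 ± 0.16 in *Sox17*-*Erg* (adjusted p = 0.021). *Igfbp5* had -0.20 ± 0.54 in control (edgeR adjusted p = 0.82) and rose by 2.38 ± 0.51 in *Sox17*-*Erg* (adjusted p = 0.009). *Igfbp2* had -0.64 ± 0.62 and 1.02 ± 0.64 (adjusted p = 0.48 and 0.26 in edgeR). The difference between the arms in this change is the same quantity as the change of the *Sox17*-*Erg* effect, and it is given without a test: -5.67 ± 0.54 for *Igfbp3*, -1.93 ± 0.50 for *Igf1*, 2.58 ± 0.74 for *Igfbp5* and 1.29 ± 0.27 for *Igf2r*, against -0.01 ± 0.41 for *Igfbp6* and 0.09 ± 0.37 for *Igfbp7*.

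In fits that left out 1 library at a time, 6 of the 7 calls in control held in all 12 fits, and the rise of *Igfbp7* had adjusted p = 0.1 without replicate 1 of Day 3 and 0.074 without replicate 1 of 4 weeks in edgeR. In *Sox17*-*Erg*, 4 of 7 held in all 12. The edgeR adjusted p of *Igf1r* was 0.097 and 0.059 without replicate 1 or 2 of Day 3 and 0.11 without replicate 1 of 4 weeks, that of *Igf1* was 0.07 without replicate 2 of Day 3 and 0.051 without replicate 1 of 4 weeks, and that of *Igfbp7* was 0.051 without replicate 1 of Day 3. All 6 cell cycle markers fell from Day 3 to 4 weeks in both arms, from sums of 394 and 314 to 37.2 and 37.6 CPM in control and from 1074 and 889 to 72.0 and 198 CPM in *Sox17*-*Erg*, and their part in the changes over time was not tested.

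**Figure D4:**
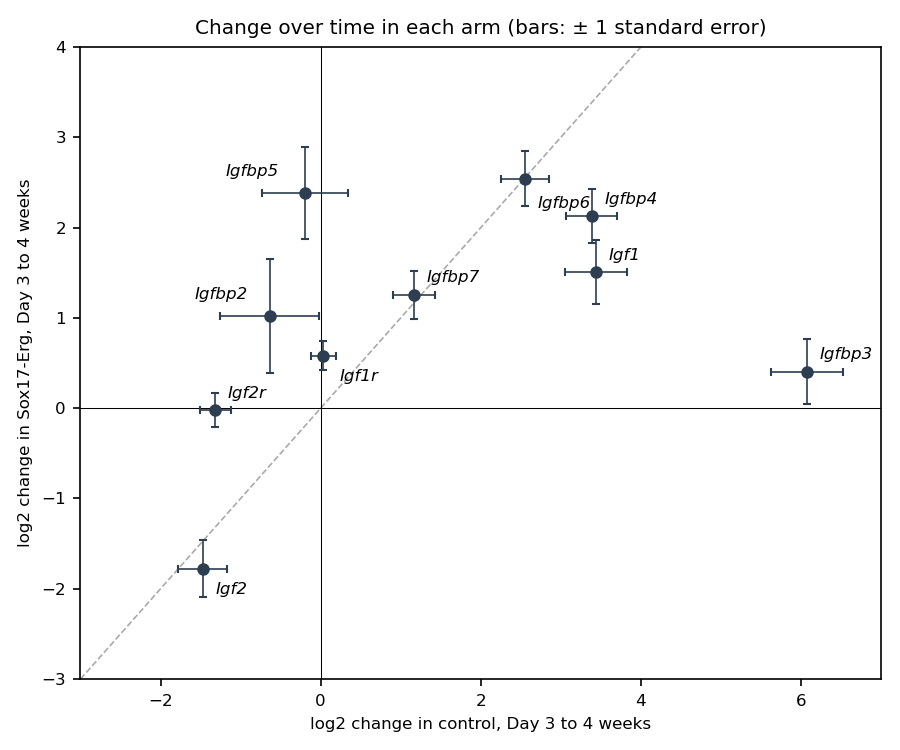
Log2 change from Day 3 to 4 weeks in control (x) and in *Sox17*-*Erg* (y) for the 10 genes, with bars of 1 standard error and a dashed line of equal change. *Igfbp6*, *Igfbp7* and *Igf2* lie near the line, *Igfbp3* lies far to the right of it at 6.08 and 0.40, and *Igfbp5* lies above it at -0.20 and 2.38.

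For the 6 members whose group means spanned at least 2 on the log2 scale, the genes with the most similar profile over the 12 libraries were sought by the root mean square difference of centred log2 CPM. *Igfbp6* had the closest companions, *Sult1a1* (0.26) and the complement gene *C2* (0.28). *Igfbp4* was most like *Gucy1a1*, a subunit of the nitric oxide receptor (0.29), and *Gm14412* (0.34). *Igf2* was most like *Pm20d1* (0.36) and *Prokr1* (0.38), and *Igfbp5* most like *Cd83* (0.51) and *Rarres1* (0.56). *Igf1* was most like *Elmod1* (0.60) and *Smoc1* (0.61). For *Igfbp3*, whose group means spanned 6.09, the closest were *Astn2* (0.76) and then *Igf1* itself (0.94). The measure sets the same 12 libraries side by side and says nothing of shared control.

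Besides the members, 56 further genes of the axis were listed by role, of which 54 were in the table and 48 passed the filter. *H19* and *Airn* were not analysed here. *Ins1*, *Ins2* and *Igfbp1* had no count in any library, and *Igfals*, the third part of the serum IGF complex, had at most 3 counts. With *Sox17*-*Erg*, 8 of the 48 were higher and 4 were lower at Day 3. These counts were 12 and 9 at Day 7, and 12 and 13 at 4 weeks, beside the shares of all genes given above. Their median log2 difference was -0.02, 0.12 and 0.00. *Cdkn1c* was among those lower at Day 3 and at 4 weeks. Its log2 difference at Day 3 ran from -3.24 to -2.31 in fits that left out 1 library. The numbers of calls depended on single libraries. Day 3 gave between 3 and 5 calls in all without either control library or without replicate 1 of *Sox17*-*Erg*, Day 7 gave 7 without replicate 2 of control and 5 without replicate 1 of *Sox17*-*Erg*, and 4 weeks gave 11 without replicate 1 of either arm and 12 without replicate 2 of *Sox17*-*Erg*.

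Of 7 genes for proteases that cut IGFBPs and for the stanniocalcins that block PAPPA, 1 was higher and 1 lower on Day 3, 1 and 2 on Day 7, and 2 and 3 after 4 weeks, beside the shares of all genes given above. *Pappa* was at 16.3 and 7.35 CPM in control and 86.7 and 74.2 CPM in *Sox17*-*Erg* at Day 3, at 23.8 and 41.4 against 85.7 and 136 CPM at Day 7, and at 84.4 and 53.4 against 27.8 and 20.3 CPM at 4 weeks. *Sox17*-*Erg* libraries thus lay above control on both early days and below it at 4 weeks, with no overlap between the arms. The log2 difference was 2.76 ± 0.44, 1.77 ± 0.42 and -1.52 ± 0.41 (adjusted p = 0.0067, 0.02 and 0.028 in edgeR). The call was lost without replicate 2 of control at Day 3, without replicate 1 of control or replicate 2 of *Sox17*-*Erg* at Day 7, and without replicate 1 of control or either *Sox17*-*Erg* library at 4 weeks, with adjusted p of at most 0.051, 0.1 and 0.16 in edgeR.

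*Stc2* was lower in *Sox17*-*Erg* at all 3 time points, at 6.68 and 16.4 CPM against 83.4 and 123 CPM at Day 3 and at 19.1 and 33.8 CPM against 324 and 169 CPM at 4 weeks. Its log2 differences were -3.15 ± 0.81, -3.03 ± 0.79 and -3.22 ± 0.80 (adjusted p = 0.037, 0.03 and 0.019 in edgeR). These calls held in 6, 10 and 9 of 12 fits that left out 1 library, and the call of Day 3 was lost without any 1 of the 4 libraries of Day 3 or of the *Sox17*-*Erg* libraries of 4 weeks. The Day 7 log2 difference of *Stc2* ran from -4.88 to -2.24 when 1 library was left out. *Stc1* was called between the arms at 4 weeks, at 22.8 and 20.6 CPM against 2.51 and 1.38 CPM (log2 3.46 ± 0.61, edgeR adjusted p = 0.0039). *Adam28* was called at 4 weeks too, at 1.84 and 1.30 CPM against 0.175 and 0.244 CPM (2.90 ± 0.47, edgeR adjusted p = 0.0026). *Htra1* was lower at Day 7 and 4 weeks, with log2 differences of -0.58 ± 0.16 and -0.58 ± 0.16 (adjusted p = 0.034 and 0.026 in edgeR), and these calls held in 7 and 9 of 12 such fits. *Adam12* and *Pappa2* were not called between the arms at any time.

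Among 22 adaptors and signalling genes downstream of the receptors, 5 were higher and 2 lower at Day 3. Day 7 gave 6 and 4, and 4 weeks gave 4 and 6. The shares of all genes, higher and then lower, were 7.19% and 5.13% on Day 3, 9.48% and 7.93% on Day 7, and 11.9% and 11.0% after 4 weeks. *Irs1*, the adaptor that docks to IGF1R, was higher in *Sox17*-*Erg* at each time, with 138 and 84.2 CPM against 35.7 and 28.0 CPM at Day 3 and 111 and 95.6 CPM against 21.9 and 18.4 CPM at 4 weeks. Its log2 difference was 1.80 ± 0.25, 2.38 ± 0.25 and 2.35 ± 0.25 (adjusted p = 0.0035, 0.00047 and 0.00028 in edgeR). *Pik3r3*, a regulatory subunit of PI3K, was at 33.6 and 25.0 CPM against 7.53 and 8.14 CPM at Day 3 and at 71.1 and 73.1 CPM against 6.99 and 6.34 CPM at 4 weeks. Its log2 difference was 1.90 ± 0.21, 2.82 ± 0.21 and 3.43 ± 0.22 (adjusted p = 0.0013, 0.00011 and 2.1e-05 in edgeR). *Irs1* and *Pik3r3* were called at every time point in all 12 fits that left out 1 library. *Pik3r3* shares 24.3% of its exon bases with *Gm49337*, which was at no more than 4.50 CPM, and *Irs1* lies opposite *Gm9747* over 30.9%, at no more than 3.15 CPM.

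*Foxo1*, a transcription factor that AKT keeps out of the nucleus and that is abundant in endothelium, had log2 differences of 0.74 ± 0.17, 0.94 ± 0.17 and 1.75 ± 0.17 (adjusted p = 0.029, 0.0067 and 0.0002 in edgeR). These calls held in 8, 11 and 12 of 12 fits that left out 1 library, and that of Day 3 was lost without any 1 of its 4 libraries. *Foxo3* was lower at Day 7 and 4 weeks, with log2 differences of -1.23 ± 0.27 and -1.25 ± 0.27 (adjusted p = 0.015 and 0.01 in edgeR), and so was the kinase gene *Akt2*, with -0.79 ± 0.17 and -0.81 ± 0.17 (adjusted p = 0.014 and 0.0089 in edgeR). The calls of *Foxo3* held in 10 and 9 of 12 such fits and those of *Akt2* in 10 and 11. *Irs4* had no count in control at Day 3 and 47 and 26 counts in *Sox17*-*Erg*, and 6 or fewer counts in each library of 4 weeks. *Igf1r* aside, the insulin receptor gene *Insr* was lower at 4 weeks, with a log2 difference of -0.42 ± 0.13 (edgeR adjusted p = 0.044), a call that held in 1 of 12 such fits.

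Of 10 tested relatives that carry an IGFBP-type domain, Day 3 gave 2 that were higher. Day 7 gave 5 higher and 2 lower, and 4 weeks gave 4 higher and 2 lower, beside the same shares of all genes (7.19% higher on Day 3, 9.48% and 7.93% on Day 7, 11.9% and 11.0% after 4 weeks). *Ccn3*, a matricellular protein, was at 24.4 and 13.3 CPM against 3.38 and 4.67 CPM at Day 3 and at 106 and 60.4 CPM against 1.13 and 1.30 CPM at 4 weeks. Its log2 difference was 2.23 ± 0.44, 4.41 ± 0.49 and 6.11 ± 0.52 (adjusted p = 0.016, 0.0006 and 8.3e-05 in edgeR), and the call at Day 3 was lost in 3 of 12 fits that left out 1 library. *Esm1*, a proteoglycan known from endothelial tip cells, had log2 differences of 2.44 ± 0.46, 2.63 ± 0.48 and 1.87 ± 0.47 (adjusted p = 0.013, 0.0065 and 0.019 in edgeR), and its calls held in 9, 12 and 10 of 12 such fits. *Htra3* and *Htra4* were lower at Day 7 and 4 weeks, *Htra3* with log2 differences of -3.92 ± 1.14 and -4.15 ± 1.15 (adjusted p = 0.044 and 0.03 in edgeR) with calls that held in 3 and 9 of 12 such fits. When 1 library was left out, the log2 difference of *Esm1* at 4 weeks ran from 1.30 to 2.70. That of *Htra3* at Day 7 ran from -6.61 to -3.04. *Igfbpl1*, an IGFBP-like gene, had at most 2 counts in any control library and 275 and 226 counts in *Sox17*-*Erg* at 4 weeks (edgeR adjusted p = 0.00063).

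**Figure D5:**
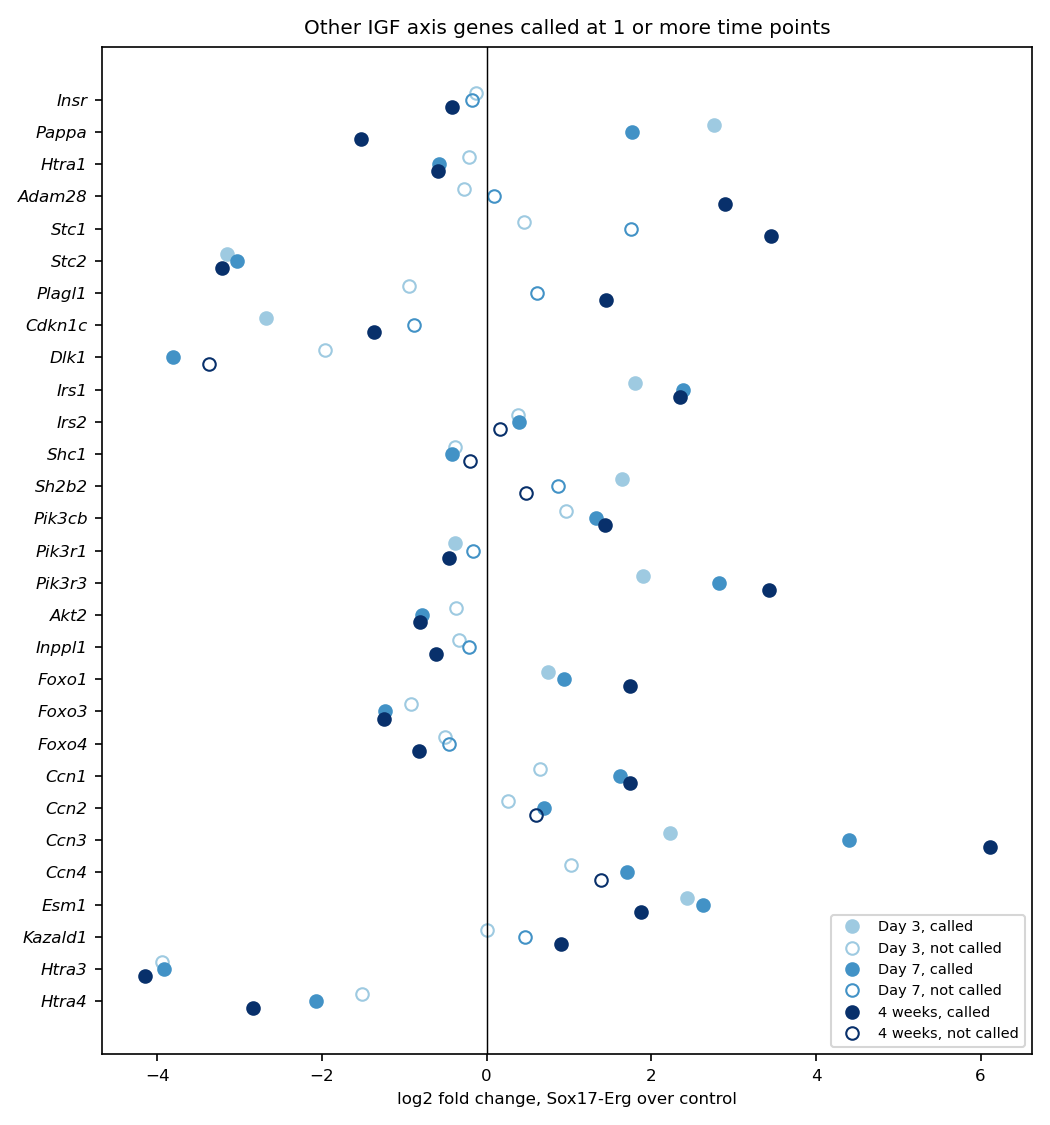
Log2 fold change of *Sox17*-*Erg* over control (x) for 29 other axis genes called at 1 or more time points, light to dark blue for Day 3, Day 7 and 4 weeks, filled where called. *Igfbpl1* and *Irs4* are left out, since a control group held 2 or fewer counts of each, and 1 further called gene is not shown. *Pappa* passes from 2.76 to -1.52, *Ccn3* climbs to 6.11, and *Stc2* stays near -3.

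Over time, 12 of these 48 genes rose and 7 fell in control, where 13.9% and 12.6% of all genes did, and 15 rose and 9 fell in *Sox17*-*Erg*, where 15.1% and 15.6% did. The *Igf2* mRNA-binding proteins *Igf2bp1* and *Igf2bp3*, which are typical of fetal tissue, fell in both arms as *Igf2* did: *Igf2bp1* by 1.43 in control and 1.75 in *Sox17*-*Erg* on the log2 scale (adjusted p = 0.00055 and 0.00033 in edgeR) and *Igf2bp3* by 1.54 and 1.73 (adjusted p = 0.00033 and 0.00029 in edgeR). *Grb10*, an imprinted inhibitor of IGF1R and the insulin receptor, fell by 1.30 and 1.66 (adjusted p = 0.0018 and 0.00072 in edgeR), and the protease gene *Adam12* by 4.38 and 3.71 (adjusted p = 0.00016 and 0.00033 in edgeR). All of these held in every fit that left out 1 library. The imprinted gene *Plagl1* fell by 2.42 in control (edgeR adjusted p = 0.0028) and had -0.03 ± 0.37 in *Sox17*-*Erg* (adjusted p = 0.96).

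Whether the *Sox17*-*Erg* effect itself differed between Day 3 and 4 weeks was tested for the 48 genes, with 2.22% of all genes called for a larger and 0.987% for a smaller effect at 4 weeks. *Ccn3* (3.88 ± 0.64, adjusted p = 0.015 in edgeR), *Adam28* (3.18 ± 0.67, adjusted p = 0.038), *Plagl1* (2.39 ± 0.53, adjusted p = 0.044) and *Pik3r3* (1.53 ± 0.29, adjusted p = 0.025) had a larger one. *Pappa* had a smaller one, with -4.28 ± 0.60 (edgeR adjusted p = 0.0083).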

How the data were processed

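Bulk RNAseq of 12 libraries (Trizol, Kapa stranded mRNA kit) was analysed. Per the labels, the authors demultiplexed reads with bcl2fastq 2.20.0 and used Salmon, mm10 and DESeq2; the Salmon version, the annotation release and the use of strand are not given in the sources used here. The deposited values are estimated counts per gene, not normalized, and were rounded to whole numbers. Column names were matched to library names in the labels. Gene names, exon lengths and positions came from the GENCODE annotation of the reference, which matched 35493 of 35727 identifiers.

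Genes were kept by edgeR's filterByExpr (minimum count 10, minimum total 15), scaled with TMM, and tested with the quasi-likelihood test of edgeR 4.0.16 in R 4.3.3 in 1 model of all 6 groups with 6 residual degrees of freedom. Fold changes are those of this fit, and a prior count of 2 was used for log2 CPM alone. P-values were adjusted by Benjamini-Hochberg over 15506 genes, with 0.05 as the threshold. The fit was tested on simulated counts. Replicates were not duplicates (chi-square over its degrees of freedom of 20.4 to 52.5).

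The members and gene lists were chosen with earlier results of these data known. The text names all 10 members, and genes of the fixed axis list with values for those called. Alternatives were DESeq2 1.42.0, other scaling, no filter, a stricter threshold, each time point fitted alone, a replicate block, the longest transcript as length, and leaving out each library. Of the genes counted in the axis list, 1 is not reported here by name.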

Additional observations from a re-analysis of the deposited data

Results flagged for a closer look

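The *Sox17*-*Erg* effect differed between Day 3 and 4 weeks, by edgeR's test of the difference itself, for 5 genes of the axis that were not members. On the log2 scale the effect at 4 weeks minus that at Day 3 was -4.28 for *Pappa*, 3.18 for *Adam28*, 2.39 for *Plagl1*, 1.53 for *Pik3r3* and 3.88 for *Ccn3*. *Igfbp3* went opposite ways, with every *Sox17*-*Erg* library above both control libraries at Day 3 and at Day 7 (log2 4.83 and 0.73) and below both at 4 weeks (-0.84), and this difference was not tested.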

How the results depend on the processing

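With 2 libraries per group, many calls rested on single libraries. Genes called numbered 1910 at Day 3, 2700 at Day 7, 3548 at 4 weeks, 4102 over time in control and 4763 over time in *Sox17*-*Erg*. Leaving out 1 library gave 272 to 1992, 920 to 2508, 1697 to 3577, 1775 to 4191 and 2125 to 4809. An adjusted p under 0.01 gave 421, 1101, 1822, 1719 and 2120, and Day 7 fitted alone gave 1088. Single libraries that moved a count by over 1.5 times were, at Day 3, control replicates 1 and 2 (377 and 367) and *Sox17*-*Erg* replicate 1 (272); at Day 7, control replicate 2 (1377) and *Sox17*-*Erg* replicate 1 (920); and at 4 weeks, replicate 1 of control (2021) and of *Sox17*-*Erg* (1697). Over time they were, in control, both replicates of Day 3 (1790 and 1880) and replicate 1 of 4 weeks (1775), and, in *Sox17*-*Erg*, both replicates of Day 3 (2125 and 2981) and replicate 1 of 4 weeks (2192). Of the other axis genes, 12, 21, 25, 19 and 24 were called, and leaving out 1 library gave 3 to 15, 5 to 18, 11 to 27 and, over time in *Sox17*-*Erg*, 15 (without replicate 1 of 4 weeks) to 25. Day 3 fitted alone called 20 and Day 7 alone 5, and without the filter 29 were called over time in control. Over time 7 members were called in each arm, and leaving out 1 library gave 6 to 7 in control and 5 to 7 in *Sox17*-*Erg*. Between the arms 3, 5 and 7 members were called at Day 3, Day 7 and 4 weeks; without the filter Day 3 gave 6, Day 7 gave 3 without *Sox17*-*Erg* replicate 1, and 4 weeks gave 4 without replicate 1 of either arm. *Igfbp2* was called over time in *Sox17*-*Erg* without the filter (adjusted p = 0.036 in edgeR). In fits without a library the lone library was assumed to vary like the other groups, and why the other alternatives moved counts was not tested. No called member changed sign under any alternative run. Among values not called, the sign changed under 1 or more alternatives for *Igf1r* and *Igfbp5* at Day 3 (*Igfbp5* -0.22 without *Sox17*-*Erg* replicate 2), *Igfbp2* at Day 7 and 4 weeks, *Igfbp2* and *Igfbp5* over time in control, and *Igf2r* over time in *Sox17*-*Erg*. Replicate numbers were shared by 2 pairs per comparison and carry no stated meaning; deviations of same-numbered libraries correlated at 0.186, 0.301 and 0.171 over 15506 genes. A replicate block gave 2260, 3032, 3818, 4307 and 4931 genes called, 16, 23, 28, 23 and 25 axis genes, and 3, 5, 7, 7 and 7 members.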
